A study of Mus musculus with 8 samples.

Results

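Cadherins and protocadherins were followed in embryonic sympathetic ganglia with reduced *Isl1*. They were taken as every gene of the E11.5 or the E14.5 expression table whose symbol begins with Cdh and a digit or with Pcdh, with *Cdh5*, the cadherin of endothelial cells, left out. The rule used symbols and no measured value, and it gave 80 genes of the 14189 in either table. Of these, 65 were among the 13506 genes listed at E11.5, 77 were among the 13413 listed at E14.5, and 62 were in both. RNA-seq had been performed on mouse sympathetic ganglia at 2 stages, with 2 libraries per genotype and, by the labels, the pooled ganglia of about 10 embryos in each. The E11.5 libraries, labelled KO and WT with the genotype Isl1-/- for KO, came from Wnt1-Cre;*Isl1* f/f embryos (CKO), in which Wnt1-Cre removes the floxed gene from the neural crest lineage, and from Wnt1-Cre;*Isl1* +/+ controls. Embryos of both E11.5 groups carried a Cre-dependent Rosa26-tdTomato reporter, and tissue without fluorescence was trimmed away. The E14.5 libraries, labelled MUT and WT, came from hypomorphic *Isl1* f-neo/f-neo embryos, which carry a reduced-function allele in all cells, and from wildtype embryos, and were dissected without the help of fluorescence.

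Cadherins are single-pass membrane proteins that hold cells together through calcium-dependent contacts of their extracellular repeats. The classical cadherins bind β-catenin and p120-catenin inside the cell and fall into type I, such as *Cdh1* (E-cadherin) and *Cdh2* (N-cadherin), and type II, such as *Cdh6* and *Cdh11*. Neural crest cells exchange one set of cadherins for another when they leave the neural tube and again when they gather into ganglia. Protocadherins lack the catenin-binding tail of classical cadherins. The δ-protocadherins are encoded by scattered single genes, whereas the α, β and γ protocadherins lie in tandem clusters, where each neuron chooses among alternative promoters with the help of CTCF and cohesin and so acquires its own surface identity.

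For each gene a table holds 1 FPKM value per genotype (fragments scaled by transcript length and by library size), made from both libraries together. No value per library and no read number could be used, so the spread between libraries and the depth are unknown, no difference below was tested, and every value is a description of the combined libraries. Differences are given as the log2 ratio of FPKM + 0.1 in mutant over FPKM + 0.1 in control ganglia. Such ratios understate the difference of low genes. A ratio of at least 1.5-fold in either direction was counted. Every listed gene had an FPKM of at least 1 in 1 genotype or the other, so a gene under 1 in control ganglia could be listed solely because it was higher in the mutant. In the same way, a gene under 1 in the mutant could be listed solely because it was higher in control ganglia. Counts are therefore also given for genes whose mean FPKM over both genotypes was at least 1, a cut that does not favour a direction. Of the 92 mouse symbols that RefSeq holds under the rule, 79 were listed at one stage or both. The other 13 were in neither table and have no values here (*Cdh7*, *Cdh9*, *Cdh12*, *Cdh16*, *Cdh17*, *Cdh20*, *Cdh23*, *Cdh26*, *Pcdh11x*, *Pcdha1*, *Pcdha8*, *Pcdhb1* and *Pcdhb13*). The remaining listed gene, *Pcdha4-g*, is not a RefSeq symbol.

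*Isl1* itself (chr13:117088478-117099896, minus strand, mm9) had 133 FPKM in control ganglia and 40.0 in the CKO at E11.5 (log2 ratio -1.73), and 162 in wildtype ganglia and 83.1 in the hypomorph at E14.5 (-0.96). Of the 13506 genes at E11.5, 12.9% were past 1.5-fold on the lower side in CKO ganglia and 18.9% on the higher side. Of the 13413 genes at E14.5, 2.12% were lower and 2.89% were higher in hypomorphic ganglia. All genes together had a median ratio of 0.05 at E11.5 and 0.003 at E14.5. Their FPKM summed to 476289 in control ganglia and 617263 in the CKO at E11.5. At E14.5 the sums were 448989 in wildtype ganglia and 440939 in the hypomorph. With erythroid and small RNA genes set aside and FPKM scaled to an equal sum in both genotypes, the E11.5 median moved by -0.24, to -0.19, and the genes past 1.5-fold went from 1746 lower and 2552 higher (59.4% higher) to 3076 lower and 1629 higher (34.6% higher), or 22.8% and 12.1% of all genes. The ratios below are from the deposited FPKM, and the text says where the sign or the 1.5-fold side of a member turns under the rescaling, read against 1.5-fold from 0 and not from the shifted median. Centring on the median instead gave 1982 genes lower and 2318 higher (53.9% higher).

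Lists of cell type markers were summed, and a sum does not by itself show that a tissue was present in the ganglia. At E11.5, all 8 neural crest and glial markers were past 1.5-fold higher in CKO ganglia, and their summed FPKM was 232 in control ganglia and 508 in the CKO, with *Fabp7* and *Metrn* the most abundant. The 9 mesenchyme markers, led by *Col1a2* and *Col1a1*, summed to 766 and 1300 FPKM, and all 9 had a ratio above 0. The 6 listed epithelial markers, led by *Krt18* and *Krt8*, summed to 5.72 and 64.9 FPKM, and all 6 were past 1.5-fold higher. Of 6 parietal yolk sac markers 5 were higher (221 and 659 FPKM, led by *Sparc* and *Lamb1*), as were both listed trophoblast genes, *Prl8a2* and *Prl7a1* (0.271 and 56.3 FPKM). *Sparc* alone had 129 and 369 FPKM of the parietal yolk sac sums. The 4 listed visceral yolk sac markers, led by *Afp* and *Rbp4*, were higher too (4.57 and 9.70 FPKM), and 7 of 8 listed erythroid genes were higher, with *Hba-x* and *Hbb-y*, the one exception and listed at 0 in CKO ganglia, the most abundant. The 8 erythroid genes summed to 10881 FPKM in control ganglia and 69024 in the CKO. Skeletal muscle markers, led by *Actc1* and *Myog*, summed to 122 and 203 FPKM, and the 8 endothelial markers, led by *Pecam1* and *Cldn5*, to 70.8 and 91.9. The 10 sympathetic neuron markers, led by *Tubb3* and *Dbh*, summed to 2890 and 2554 FPKM, and 3 were past 1.5-fold lower. The single listed mesonephros marker, *Wt1*, had 5.97 and 8.88 FPKM. At E14.5, sympathetic neuron markers, led by *Tubb3* and *Stmn2*, summed to 4766 FPKM in wildtype ganglia and 3933 in the hypomorph, and endothelial markers, led by *Cdh5* and *Pecam1*, to 90.9 and 128, with all 8 above 0. Neural crest and glial markers summed to 425 and 472 FPKM, mesenchyme markers to 1575 and 1756, parietal yolk sac markers to 395 and 451, visceral yolk sac markers, led by *Afp* and *Apoa1*, to 17.8 and 26.0, and skeletal muscle markers, led by *Actc1* and *Des*, to 175 and 166. *Sparc* alone had 251 and 293 FPKM of the parietal yolk sac sums. Erythroid genes, led by *Hbb-b1* and *Hbb-y*, summed to 5633 and 6847 FPKM, while *Wt1* had 3.36 and 3.25 FPKM. *Krt19* was the one epithelial marker listed (3.61 and 2.48 FPKM), and no trophoblast gene was listed. In whole ganglia, fewer cells of a type and less RNA per cell cannot be told apart.

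At E11.5, 23 of the 65 listed cadherins and protocadherins (35.4%) were at least 1.5-fold higher in CKO ganglia and 4 (6.15%) were at least 1.5-fold lower, beside 18.9% and 12.9% of all genes. Their median log2 ratio was 0.40. Under the rescaling the counts were 11 higher and 8 lower, with a median of 0.18, beside 12.1% and 22.8% of all genes, and read from the shifted median they were 22 and 6. Most type II cadherins and δ-protocadherins and all listed β isoforms had the higher values in CKO ganglia, whereas most γ protocadherins had the lower values. Among the 54 genes with a mean FPKM of at least 1, 16 (29.6%) were higher and 3 (5.56%) lower. Their median was 0.31, beside 0.04 for all genes at that cut. Of the 54, 36 had a ratio above 0, beside 53.4% of all genes at that cut. No share of all genes past 1.5-fold is given at that cut, so the counts past 1.5-fold have no background there. At E14.5, by contrast, 1 of 77 was higher and 4 (5.19%) were lower in hypomorphic ganglia, beside 2.89% and 2.12% of all genes, and the median was -0.13. Of the 4 lower members, *Cdh8*, *Pcdh15* and *Pcdha4-g* were under 1 FPKM in the hypomorph, so the listing fixed their sign. Among the 74 with a mean of at least 1, 1 (1.35%) was higher and 2 (2.70%) were lower. Their median was -0.12, beside 0.002 for all genes at that cut. Below 0 were 53 of the 74, beside 49.4% of all genes at that cut. The E14.5 values of the α and β clusters were nearly all below 0. The 2 comparisons differ in allele, stage and dissection as well as in the libraries, and their difference was not tested.

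**Figure D1:**
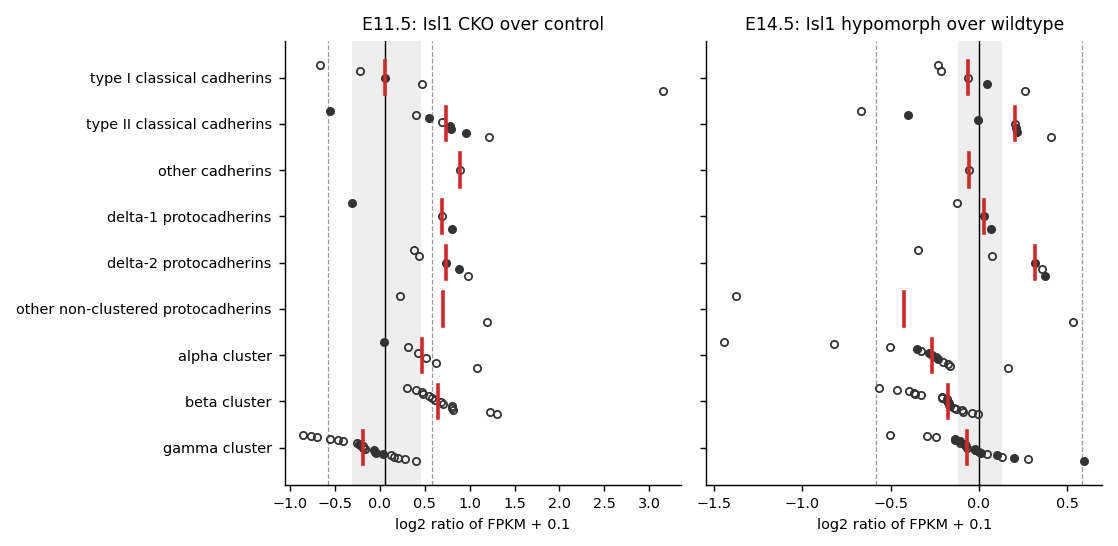
Log2 ratio of FPKM + 0.1, mutant over control, for each listed member by group, at E11.5 (left) and E14.5 (right, on its own axis range). Filled points have 5 FPKM or more in either genotype, open points less, red bars are group medians, the grey band spans the quartiles of all genes around their median (black line), and dashed lines mark 1.5-fold. At E11.5 the medians of type II cadherins (0.74), δ-2 (0.74) and δ-1 protocadherins (0.69) and the β (0.65) and α (0.47) clusters lie to the right of the band. So do the other cadherins (0.89, 1 gene) and other non-clustered protocadherins (0.71, 2 genes). The γ median (-0.18) lies inside the band, left of the median of all genes. At E14.5 the α (-0.27), β (-0.18) and other non-clustered protocadherin (-0.42, 2 genes) medians lie below the band. Those of δ-2 protocadherins (0.32) and type II cadherins (0.21) lie above it. Under the rescaling of FPKM at E11.5, all points of that panel move left by about 0.24.

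Type I cadherins include the main cadherins of epithelia and of neural tissue. *Cdh2*, the main cadherin of neurons and their progenitors, was the most abundant member in both kinds of control ganglia. At E11.5 it had 69.8 FPKM in control ganglia and 72.7 in the CKO, a log2 ratio of 0.06 that becomes -0.18 under the rescaling. At E14.5 it had 62.7 FPKM in wildtype ganglia and 64.9 in the hypomorph (0.05). The most abundant cadherin was thus nearly equal between genotypes at each stage.

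*Cdh1*, the cadherin of epithelia, had the highest ratio of the family at E11.5, with 0.0985 FPKM in control ganglia and 1.67 in the CKO (log2 ratio 3.15). It was listed through the CKO value alone, so the listing fixed its sign, and its mean of 0.882 FPKM was below the cut of 1. Its level in CKO ganglia was still among the low ones, and the ratio depends on the pseudocount, from 1.28 with 1 to 3.95 with 0.01. The epithelial markers were higher in the same libraries, with *Krt8* at 0.690 FPKM in control ganglia and 22.0 in the CKO and *Krt18* at 2.13 and 22.6, and their part in the value of *Cdh1* was not tested. At E14.5, where *Krt8* and *Krt18* were not listed, *Cdh1* had 1.75 FPKM in wildtype ganglia and 1.67 in the hypomorph (-0.06). The E11.5 CKO value of *Cdh1* therefore lay close to both E14.5 values, although the tables of the 2 stages were normalized separately.

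*Cdh4* (R-cadherin), a cadherin of developing brain and retina, was the only non-clustered member past 1.5-fold lower at E11.5, with 2.21 FPKM in control ganglia and 1.35 in the CKO (-0.67). At E14.5 its order was the opposite, with 2.86 FPKM in wildtype ganglia and 3.44 in the hypomorph (0.26). *Cdh3* (P-cadherin) was lower in the mutant at each stage without passing 1.5-fold, at 4.002 and 3.40 FPKM at E11.5 (-0.23) and 1.64 and 1.40 at E14.5 (-0.22). *Cdh15* (M-cadherin), the cadherin of skeletal muscle precursors, had 3.38 FPKM in control ganglia and 4.71 in the CKO at E11.5 (0.46) and 4.97 and 4.22 at E14.5 (-0.23). The skeletal muscle markers had their higher sum in the same genotype as *Cdh15* at each stage, and their part in its values was not tested.

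Type II cadherins are expressed in finer patterns that sort neuron pools and mesenchyme. At E11.5, 7 of 8 listed type II genes had the higher value in CKO ganglia, beside 53.9% of all genes. Past 1.5-fold higher were 5, beside 18.9% of all genes, and the median ratio of the 8 was 0.74. The same 7 kept their sign under the rescaling, where *Cdh10* and *Cdh18* alone were past 1.5-fold higher. *Cdh11* (chr8:105156895-105309011, minus strand, mm9), a cadherin of mesenchyme and migrating neural crest, had the largest difference in FPKM, at 57.9 in control ganglia and 99.8 in the CKO (0.78), which put it above *Cdh2* in the CKO. *Cdh6*, which marks early neural crest, had 20.2 FPKM in control ganglia and 35.0 in the CKO (0.79). *Cdh10* had 4.48 and 8.77 FPKM (0.95). These 3 were past 1.5-fold higher at levels well above the listing limit, but under the rescaling *Cdh11* (0.54) and *Cdh6* (0.55) were below 1.5-fold and *Cdh10* (0.72) was not.

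*Cdh19*, the cadherin of Schwann cell precursors and glia, had 6.02 FPKM in control ganglia and 8.81 in the CKO at E11.5 (0.54), just under 1.5-fold, beside a neural crest and glial list in which all 8 markers were past 1.5-fold. The median log2 ratio of that list was 1.13 and that of the mesenchyme list 0.66, so *Cdh11* and *Cdh6* had ratios near the mesenchyme median and *Cdh19* lay below the glial one. The part of these markers in the cadherin values was not tested. *Cdh8* had 1.45 and 2.39 FPKM (0.69, and 0.46 under the rescaling), *Cdh22* had 2.43 and 3.23 (0.40), and *Cdh18*, listed at E11.5 only, had 0.627 and 1.59 (1.22), the last with a control value below the listing limit. *Cdh24* stood apart from the other type II genes, with 5.96 FPKM in control ganglia and 4.02 in the CKO (-0.56, and -0.79 under the rescaling, which is past 1.5-fold).

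At E14.5 the type II genes lay closer together between genotypes, with 4 of 7 above 0 and a median log2 ratio of 0.21. *Cdh11* had 29.5 FPKM in wildtype ganglia and 34.3 in the hypomorph (0.21), *Cdh24* had 6.88 and 7.98 (0.21), *Cdh19* had 2.04 and 2.37 (0.21) and *Cdh10* had 2.24 and 3.004 (0.41). *Cdh6*, at 9.34 and 9.31 FPKM, was nearly equal (-0.01, and 0.02 under the rescaling). *Cdh22*, a cadherin of the nervous system, was the abundant type II gene with the lower value in the mutant, at 15.1 FPKM in wildtype ganglia and 11.4 in the hypomorph (-0.40). *Cdh8* was past 1.5-fold lower, at 1.35 and 0.812 FPKM (-0.67), so that the same gene had its higher value in CKO ganglia at E11.5 and its lower value in hypomorphic ganglia at E14.5. At E14.5 it was listed through the wildtype value alone, so the listing fixed its sign there. *Cdh13* (T-cadherin), a cadherin held in the membrane by a lipid anchor, had 1.69 FPKM in control ganglia and 3.23 in the CKO at E11.5 (0.89) and 1.46 and 1.41 at E14.5 (-0.05).

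**Figure D2:**
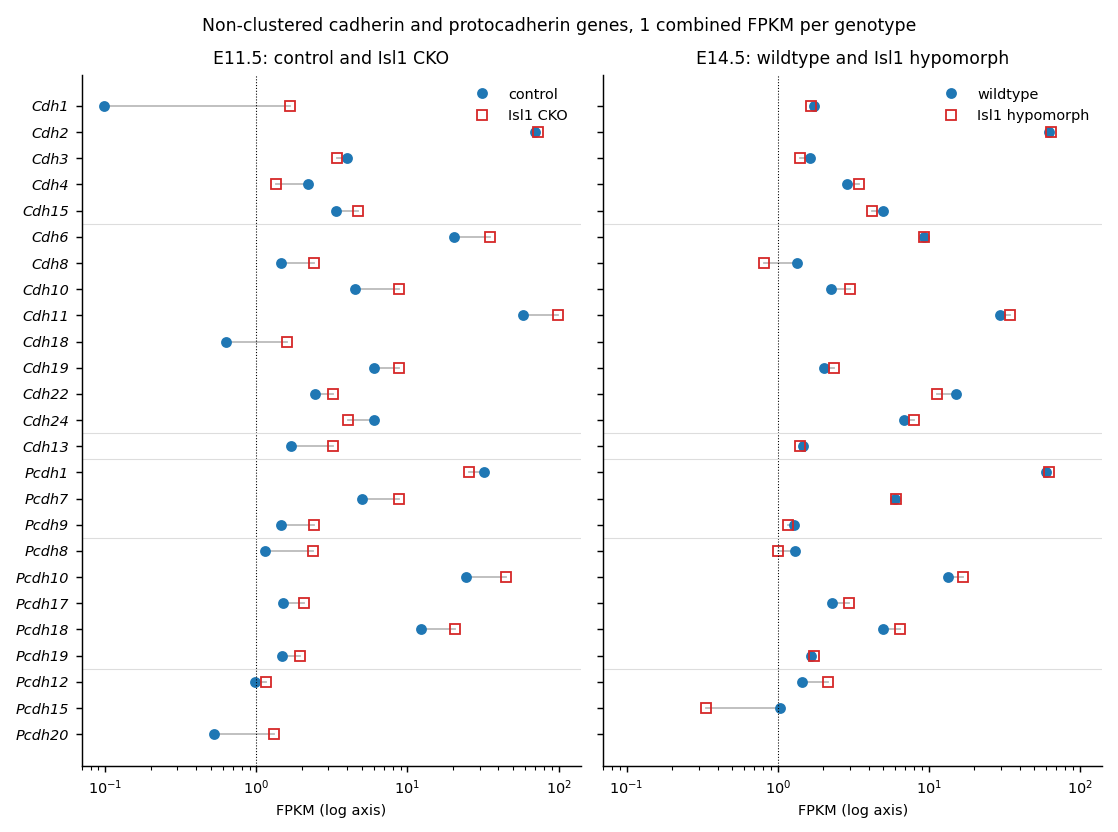
FPKM on a log axis of the 25 non-clustered genes in control (filled circles) and mutant ganglia (open squares), 1 combined value per genotype, at E11.5 (left) and E14.5 (right). The dotted line is the listing limit of 1 FPKM, thin grey lines part the groups, and a missing row means that the gene was not listed at that stage. At E11.5 the squares of *Cdh6* (35.0), *Cdh10* (8.77), *Cdh11* (99.8), *Pcdh10* (45.2) and *Pcdh18* (20.6) lie to the right of their circles, and at E14.5 the 2 marks of most genes overlap.

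The δ-protocadherins guide axons and shape contacts between neurons, and *Pcdh10* and *Pcdh19* act through actin regulators. At E11.5 all 5 listed δ-2 genes had the higher value in the CKO, beside 53.9% of all genes. Their median ratio was 0.74, and they kept that sign under the rescaling. *Pcdh10* had 24.6 FPKM in control ganglia and 45.2 in the CKO (0.88). *Pcdh18* had 12.3 and 20.6 FPKM (0.74). *Pcdh8*, which in early embryos works in cell sorting, had 1.14 and 2.35 FPKM (0.98), *Pcdh17* had 1.498 and 2.06 (0.43) and *Pcdh19* had 1.48 and 1.95 (0.37). The first 3 of these were past 1.5-fold higher, beside 18.9% of all genes, and the last 2 were not. Under the rescaling *Pcdh18* (0.50) was no longer past 1.5-fold.

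Among the δ-1 genes, *Pcdh7* had 4.98 FPKM in control ganglia and 8.77 in the CKO at E11.5 (0.80) and *Pcdh9* had 1.45 and 2.40 (0.69), ratios that were 0.56 and 0.46 under the rescaling, below 1.5-fold. *Pcdh1*, the most abundant protocadherin outside the clusters, had the opposite order, at 31.9 and 25.6 FPKM (-0.31). *Pcdh1* was thus above *Pcdh10* in control ganglia and below it in the CKO. *Pcdh12*, a protocadherin of endothelial cells, had 0.979 and 1.16 FPKM (0.22), and *Pcdh20*, listed at E11.5 only, had 0.521 and 1.32 (1.19), both with control values below the listing limit.

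At E14.5, 4 of the 5 δ-2 genes had the higher value in hypomorphic ganglia, beside 50.7% of all genes, and none was past 1.5-fold. *Pcdh10* had 13.5 FPKM in wildtype ganglia and 16.8 in the hypomorph (0.32), *Pcdh18* had 4.97 and 6.46 (0.37), *Pcdh17* had 2.303 and 2.98 (0.36) and *Pcdh19* had 1.65 and 1.74 (0.08). *Pcdh8* was the exception, at 1.31 and 1.01 FPKM (-0.34). *Pcdh1* had 59.9 and 62.9 FPKM (0.07), *Pcdh7* had 5.93 and 6.06 (0.03) and *Pcdh9* had 1.28 and 1.17 (-0.13), so the δ-1 genes were nearly level. *Pcdh12* had 1.44 and 2.14 FPKM (0.53) beside an endothelial list with a median log2 ratio of 0.48, in which *Cdh5* had 20.0 and 28.5 FPKM and *Pecam1* 15.7 and 22.2, and the part of that list was not tested. *Pcdh15*, known from the tip links of hair cells, was listed at E14.5 only, at 1.03 FPKM in wildtype ganglia and 0.336 in the hypomorph (-1.38), and passed the listing limit through the wildtype value alone.

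Across both stages, 7 members had at least 5 FPKM in a group and a ratio past 1.5-fold at that stage, and they are shown here because they pass 1.5-fold away from the listing limit. They are *Cdh6*, *Cdh10*, *Cdh11*, *Pcdh7*, *Pcdh10* and *Pcdh18*, all higher in CKO ganglia at E11.5, and *Pcdhgc4*, which was higher in hypomorphic ganglia at E14.5. These make 6 of the 15 members with at least 5 FPKM in either genotype at E11.5 (40%) and 1 of 22 at E14.5 (4.55%). Of all genes with at least 5 FPKM in either genotype, 15.1% were past 1.5-fold higher at E11.5 and 2.17% at E14.5. Under the rescaling *Cdh10* and *Pcdh10* were the ones of the first 6 that stayed past 1.5-fold. The promoters of 5 of them follow, as RefSeq gives them in mouse build GRCm38.p6, each with the 250 bases before and the 50 bases from the start of the gene. *Isl1* encodes a LIM-homeodomain factor, and homeodomain proteins bind sequences with a TAAT core. Each is written 5′ to 3′ on the strand of the gene, in lower case, with capitals for TAAT on either strand (TAAT or ATTA) and for GC boxes on either strand (GGGCGG or CCGCCC). They lie at chr15:13173626-13173925 on the minus strand (*Cdh6*), chr15:18820079-18820378 on the plus strand (*Cdh10*), chr5:57717831-57718130 on the plus strand (*Pcdh7*), chr3:45378148-45378447 on the plus strand (*Pcdh10*) and chr3:49757267-49757566 on the minus strand (*Pcdh18*).
Cdh6: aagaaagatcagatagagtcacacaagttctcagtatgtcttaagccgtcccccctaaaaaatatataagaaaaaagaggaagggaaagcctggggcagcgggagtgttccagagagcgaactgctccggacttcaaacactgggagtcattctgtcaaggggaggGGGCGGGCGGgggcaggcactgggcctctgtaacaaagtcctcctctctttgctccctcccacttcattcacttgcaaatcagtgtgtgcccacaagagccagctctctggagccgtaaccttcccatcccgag
Cdh10: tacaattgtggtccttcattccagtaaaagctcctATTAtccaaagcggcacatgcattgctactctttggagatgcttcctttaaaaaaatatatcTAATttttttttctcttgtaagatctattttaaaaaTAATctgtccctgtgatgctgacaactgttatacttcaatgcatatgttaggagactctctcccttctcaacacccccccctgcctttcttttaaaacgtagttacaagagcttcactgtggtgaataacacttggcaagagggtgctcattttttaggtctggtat
Pcdh7: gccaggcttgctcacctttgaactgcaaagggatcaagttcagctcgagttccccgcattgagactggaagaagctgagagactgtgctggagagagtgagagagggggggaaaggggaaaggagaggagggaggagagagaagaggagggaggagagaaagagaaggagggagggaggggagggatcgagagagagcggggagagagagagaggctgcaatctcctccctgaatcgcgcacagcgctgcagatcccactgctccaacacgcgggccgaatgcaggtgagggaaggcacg
Pcdh10: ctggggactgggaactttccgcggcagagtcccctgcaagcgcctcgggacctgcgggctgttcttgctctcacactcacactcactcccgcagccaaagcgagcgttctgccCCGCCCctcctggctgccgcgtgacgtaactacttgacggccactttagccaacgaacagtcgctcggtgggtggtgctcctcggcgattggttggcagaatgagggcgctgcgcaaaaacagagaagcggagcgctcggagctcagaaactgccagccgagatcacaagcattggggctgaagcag
Pcdh18: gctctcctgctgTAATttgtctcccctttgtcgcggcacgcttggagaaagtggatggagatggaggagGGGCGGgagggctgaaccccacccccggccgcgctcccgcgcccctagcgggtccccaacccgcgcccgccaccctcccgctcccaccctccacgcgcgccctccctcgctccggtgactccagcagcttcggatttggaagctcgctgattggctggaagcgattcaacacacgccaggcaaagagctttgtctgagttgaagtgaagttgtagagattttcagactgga

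The promoter of *Cdh10* is the one poor in G and C, at 37.7% GC, and holds 3 TAAT cores and 0 GC boxes. The other 4 have 53.0% to 63.0% GC. *Pcdh18* holds 1 TAAT core and 1 GC box, *Pcdh10* holds 0 and 1, *Cdh6* holds 0 and 2 overlapping GC boxes, and *Pcdh7* holds 0 of either. E-boxes (CANNTG, which reads the same pattern on both strands) number 5 for *Cdh10*, 1 for *Cdh6*, 1 for *Pcdh7* and 0 for *Pcdh10* and *Pcdh18*. Over all 32851 promoters of this length in the RefSeq table, 58.0% hold a TAAT core on either strand, 35.7% a GC box and 72.3% an E-box, and the median GC content is 52.7%. TAAT and ATTA share letters where they overlap as TAATTA. So 2 of the 5 promoters hold a TAAT core, beside 58.0% of all, and these short matches are a description of the windows and no binding sites.

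The clustered protocadherins take 41 of the 65 genes listed at E11.5 and 54 of the 77 at E14.5. They lie on chromosome 18, and in RefSeq 8 of 14 α and 10 of 22 γ genes end at a shared end, where variable first exons are spliced to common last ones. The 22 β genes share no end but resemble each other closely. Reads from shared or similar exons can be split among isoforms by the counting, so the isoforms were read as summed FPKM per cluster and as counts, and a single isoform is uncertain.

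The β cluster summed to 15.7 FPKM in control ganglia and 26.1 in the CKO at E11.5 (14 isoforms, log2 ratio 0.73). All 14 listed β isoforms had the higher value in CKO ganglia, as deposited and under the rescaling, and 8 were past 1.5-fold, beside 53.9% of all genes with a ratio above 0 and 18.9% past 1.5-fold higher. Under the rescaling 3 of them were past 1.5-fold and the log2 ratio of the sum was 0.49, below 1.5-fold. The control values were low, from 0.387 to 2.39 FPKM, and 8 of the 14 were below the listing limit in control ganglia. Among the 8 β isoforms with a mean FPKM of at least 1, all 8 were higher in CKO ganglia, beside 53.4% of all genes at that cut. Past 1.5-fold were 5, for which no share of all genes is given at that cut. *Pcdhb17*, the most abundant, had 2.39 and 3.37 FPKM (0.48), and *Pcdhb7*, the next, had 2.15 and 3.51 (0.69). The sum without *Pcdhb17* had a log2 ratio of 0.77. Because reads can be split among similar isoforms, this does not show how the difference was spread over the cluster.

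The α cluster summed to 16.1 FPKM in control ganglia and 19.2 in the CKO at E11.5 (6 isoforms, log2 ratio 0.26), which is 0.02 under the rescaling. *Pcdhac2*, a C-type isoform made by most neurons, took 61.7% of the control sum, with 9.91 and 10.2 FPKM (0.04, and -0.20 under the rescaling). The other 5 α isoforms together had 6.15 FPKM in control ganglia and 9.05 in the CKO (0.56). Of these 5, *Pcdha4* and *Pcdhac1* were below the listing limit in control ganglia and were listed through the CKO value, and *Pcdha4* (0.62) was not past 1.5-fold under the rescaling (0.40). The 4 α isoforms with a mean FPKM of at least 1 summed to 14.7 and 16.7 FPKM (0.18), with *Pcdha12* the most abundant after *Pcdhac2* (1.88 and 2.55). *Pcdhac1*, the other C-type α isoform, had 0.576 and 1.33 FPKM (1.08).

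The γ cluster was the most abundant and differed from the other 2. It summed to 100.1 FPKM in control ganglia and 94.6 in the CKO at E11.5 (21 isoforms, log2 ratio -0.08). Of the 21 isoforms 15 had the lower value in CKO ganglia, beside 46.1% of all genes. Under the rescaling 19 were below 0 and 16 were below the shifted median of all genes. Past 1.5-fold lower were *Pcdhga5*, *Pcdhga8* and *Pcdhgc5*, named after their values were seen, at 1.01 to 2.23 FPKM in control ganglia. These 3 make 14.3% of the listed γ isoforms, close to the 12.9% of all genes, and under the rescaling 6 were past 1.5-fold lower. All 7 listed γB isoforms were lower, between -0.56 and -0.06. *Pcdhgc3*, a C-type isoform, took 41.8% of the control sum, with 41.8 and 42.7 FPKM (0.03, and -0.21 under the rescaling). The other isoforms at or above 5 FPKM were *Pcdhga11* (5.69 and 4.84 FPKM), *Pcdhgb6* (6.79 and 6.47) and *Pcdhgb7* (6.05 and 5.81), each with the lower value in CKO ganglia. Over all 3 clusters the sum was 131.9 FPKM in control ganglia and 140.0 in the CKO (0.09), so the clusters together were close to level while their parts had opposite signs.

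At E14.5 the α and β clusters had the lower values in the mutant. The α cluster summed to 63.4 FPKM in wildtype ganglia and 50.8 in the hypomorph (13 isoforms, log2 ratio -0.32). Of the 13 isoforms 12 were below 0, beside 49.3% of all genes, the exception being *Pcdhac1* (1.43 and 1.62 FPKM, 0.17). *Pcdhac2* had 15.7 and 13.0 FPKM (-0.27) and *Pcdha12*, the next, had 10.8 and 8.42 (-0.35), and *Pcdha11* (5.94 and 4.86) and *Pcdha10* (5.38 and 4.57) had the same order. Past 1.5-fold were *Pcdha7* (3.74 and 2.07 FPKM, -0.82) and *Pcdha4-g* (1.06 and 0.327, -1.44). *Pcdha4-g* passed the listing limit through the wildtype value alone, so the listing fixed its sign. Among the 12 α isoforms with a mean FPKM of at least 1, 11 were below 0. Lower values were thus listed for abundant and scarce α isoforms, with the C-type *Pcdhac1* apart. Reads from the shared exons can be split among them, so these values are not independent.

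The β cluster summed to 44.3 FPKM in wildtype ganglia and 38.2 in the hypomorph at E14.5 (20 isoforms, log2 ratio -0.21). All 20 were below 0, between -0.56 and -0.01, beside 49.3% of all genes, and none was past 1.5-fold, and under the rescaling *Pcdhb19* turned to 0.02. *Pcdhb17* had 7.15 and 6.29 FPKM (-0.18) and *Pcdhb22*, the next, had 3.82 and 3.48 (-0.13). Of the 20, 2 were below the listing limit in the hypomorph and were listed through the wildtype value alone, so the listing fixed their sign. They were *Pcdhb12* (1.04 and 0.674 FPKM) and *Pcdhb14* (1.15 and 0.978), named after their values were seen. For the 19 β isoforms with a mean of at least 1, all 19 were below 0, beside 49.4% of all genes at that cut. The listed β values thus each differed little and all in one direction, and as reads can be split among them they are not independent.

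The γ cluster was nearly level at E14.5, at 150.9 FPKM in wildtype ganglia and 156.1 in the hypomorph (21 isoforms, log2 ratio 0.05), with 14 of 21 isoforms below 0 as deposited and 11 under the rescaling. *Pcdhgc3* had 56.3 and 60.5 FPKM (0.10), *Pcdhgc4* had 5.89 and 8.97 (0.60) and *Pcdhgc5* had 1.09 and 1.34 (0.28), so all 3 C-type γ isoforms were above 0. *Pcdhgc4*, known for its role in the survival of neurons, was the single member past 1.5-fold higher at this stage. The other γ isoforms at or above 5 FPKM were *Pcdhga11* (11.1 and 11.2 FPKM), *Pcdhgb7* (10.5 and 12.1), *Pcdhgb6* (9.88 and 9.87, a ratio that turns to 0.03 under the rescaling), *Pcdhga12* (5.63 and 5.55, turning to 0.01), *Pcdhga7* (5.59 and 5.09) and *Pcdhga4* (5.37 and 4.97). Of these 6 only *Pcdhgb7* had a log2 ratio beyond 0.2 in either direction. Across the 3 clusters the sum was 258.6 FPKM in wildtype ganglia and 245.1 in the hypomorph (-0.08).

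**Figure D3:**
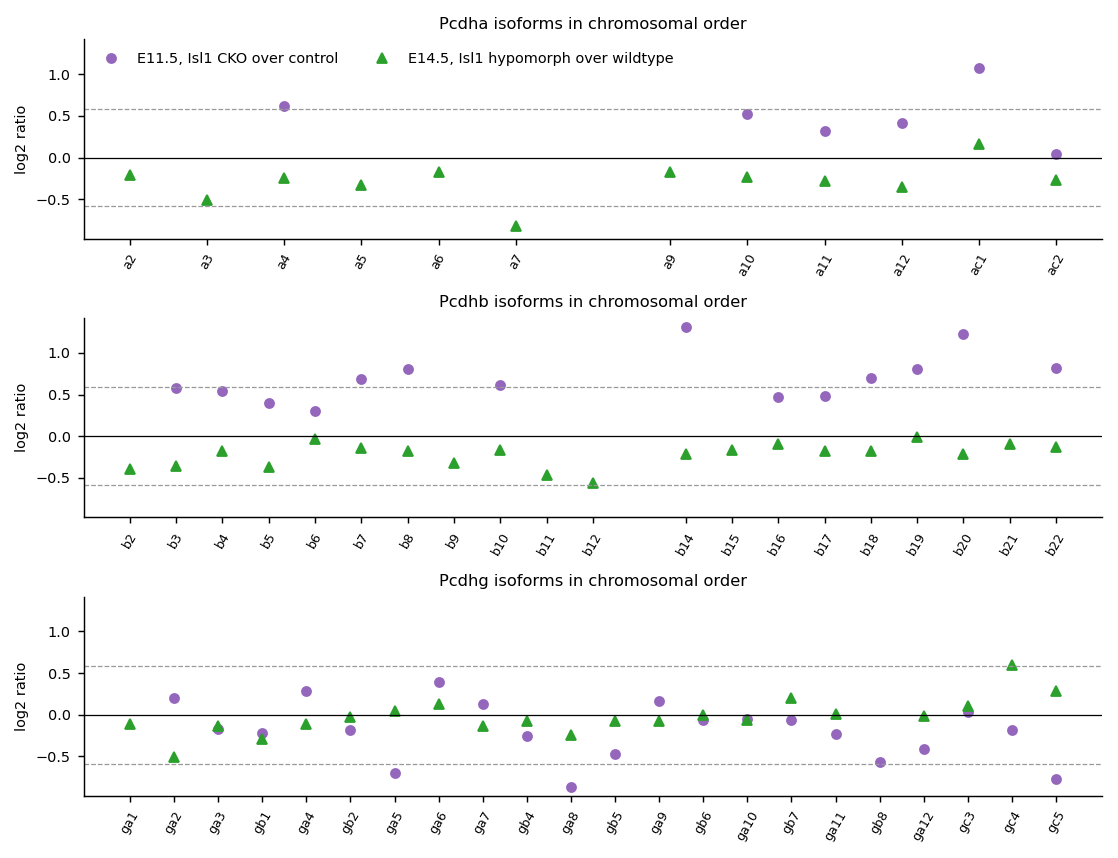
Log2 ratio of FPKM + 0.1, mutant over control, for each listed isoform of the *Pcdha*, *Pcdhb* and *Pcdhg* clusters, drawn in chromosomal order without distances, at E11.5 (circles) and E14.5 (triangles). Dashed lines mark 1.5-fold, and *Pcdha4-g* is left out because RefSeq gives it no place. In the β cluster all 14 circles lie above 0 and all 20 triangles below it, in the α cluster 6 circles lie above 0 and the one triangle above 0 is *Pcdhac1*, and in the γ cluster both kinds of mark lie on either side. Rescaling FPKM moves the circles down by about 0.24, which takes *Pcdhac2*, *Pcdhga2*, *Pcdhga7*, *Pcdhga9* and *Pcdhgc3* below 0, and moves the triangles up by 0.03, which takes *Pcdhb19*, *Pcdhga12*, *Pcdhgb2* and *Pcdhgb6* above 0.

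**Figure D4:**
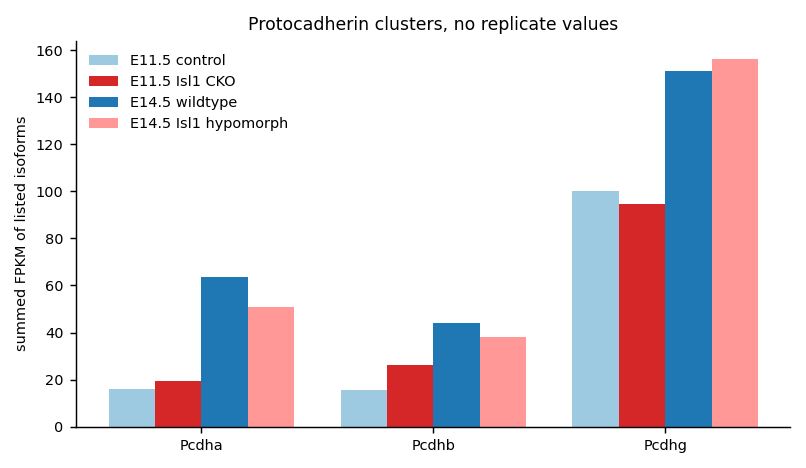
Summed FPKM of the listed isoforms of each cluster in the 4 groups, with bars from 0 and no error bars because no replicate values were available. The *Pcdhb* bars stand at 15.7 and 26.1 at E11.5 and at 44.3 and 38.2 at E14.5, and the *Pcdhg* bars are the tallest in every group. The tables of the 2 stages were normalized separately and list different numbers of isoforms.

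Set side by side, the control ganglia of the 2 stages had different levels of the family, in tables that were normalized separately and from controls that differ in Cre and reporter. Of the 62 members listed at both stages, 49 had the higher FPKM in E14.5 wildtype ganglia, beside 64.1% of the 12731 genes listed at both. The clusters held most of these, with 6 of 6 α, 13 of 14 β and 19 of 20 γ isoforms higher at E14.5. The median α isoform had 1.48 FPKM at E11.5 and 5.66 at E14.5. Type II cadherins had the other order, with 2 of 7 higher at E14.5. *Cdh22* went with the clusters, at 2.43 FPKM in E11.5 and 15.1 in E14.5 controls, while *Cdh11* had 57.9 and 29.5, *Cdh6* had 20.2 and 9.34, *Cdh19* had 6.02 and 2.04 and *Pcdh10* had 24.6 and 13.5. Of the 14 β isoforms in both tables, all 14 had the higher value in CKO ganglia at E11.5 and the lower value in hypomorphic ganglia at E14.5, and the same held for 5 of 6 α isoforms, beside 25.2% of all genes listed at both stages. Under the rescaling the counts were 13 of 14 and 4 of 6. At E11.5, 8 of these β and 2 of these α isoforms were below 1 FPKM in control ganglia. Those could be listed only through a higher CKO value, so the listing fixed their E11.5 sign. For *Pcdhb14* (1.15 and 0.978 FPKM at E14.5) the listing fixed the E14.5 sign as well. The 8 β isoforms with a mean FPKM of at least 1 at E11.5 were all higher in CKO ganglia as well.

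The partners of these proteins were read from lists chosen by function. Catenins link classical cadherins to actin, and nectins seed the same junctions. Of 15 listed catenins and junction partners, 1 was past 1.5-fold higher and 2 lower in CKO ganglia at E11.5. Of all genes 18.9% were higher and 12.9% lower. The median ratio of the list was 0.25. *Ctnnb1* (β-catenin), the most abundant, had 333 FPKM in control ganglia and 410 in the CKO (0.30). *Pvrl2* (nectin-2) had 18.3 and 28.9 FPKM (0.65), *Mllt4* (afadin), which ties nectins to actin, had 18.1 and 12.0 (-0.59), and *Pvrl1* (nectin-1), named after its value was seen, had 6.33 and 1.87 (-1.71), so the nectin genes had opposite signs. At E14.5 none of 16 was past 1.5-fold, and *Ctnnb1* had 263 and 280 FPKM (0.09).

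Other members of the cadherin superfamily, such as the large Fat and Celsr receptors and the calsyntenins, include *Ret*, a receptor with cadherin-like domains that binds GDNF family ligands with its co-receptors. At E11.5, 2 of 12 listed were past 1.5-fold lower and none was higher, beside 12.9% and 18.9% of all genes. *Celsr3*, which works in axon guidance, had 25.7 FPKM in control ganglia and 11.2 in the CKO (-1.20). *Ret*, the most abundant, had 106 and 97.6 FPKM (-0.11). At E14.5 *Ret* was the one gene of 11 past 1.5-fold, at 68.8 FPKM in wildtype ganglia and 129.8 in the hypomorph (0.91), and *Celsr3* had 50.03 and 44.2 (-0.18).

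Snail, Zeb and Twist factors repress *Cdh1* in cells that leave an epithelium. At E11.5, 4 of these 6 repressors were past 1.5-fold higher in CKO ganglia, beside 18.9% of all genes, or 12.1% under the rescaling. Among the 4 were *Twist1* (12.4 and 22.8 FPKM, 0.88) and *Snai2* (9.05 and 14.0, 0.62). *Zeb1*, the most abundant of the 6, had 26.5 and 20.5 (-0.37). Under the rescaling *Twist1* (0.64) and *Twist2* (0.64) stayed past 1.5-fold and *Snai1* (0.58) and *Snai2* (0.38) did not. *Twist2* and *Snai1* are named after their values were seen. At E14.5 none was past 1.5-fold and *Zeb1* had 46.3 and 41.3 FPKM (-0.16). Of 10 genes for proteases that cut cadherins or for subunits of γ-secretase, 1 was past 1.5-fold higher at E11.5 and none at E14.5. Of all genes 18.9% and 2.89% were. *Psenen*, a subunit of γ-secretase and the most abundant of the 10 at E11.5, had 104 and 140 FPKM (0.43). *Adam10*, which sheds the ectodomain of *Cdh2* and was the most abundant protease at E14.5, had 47.9 FPKM in wildtype ganglia and 51.1 in the hypomorph (0.10).

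CTCF, cohesin and several chromatin repressors control which clustered isoforms a neuron expresses. At E11.5, 11 of 12 listed had the lower value in CKO ganglia, beside 46.1% of all genes, and 4 were past 1.5-fold lower, beside 12.9%, with a median ratio of -0.45. The 4 were the cohesin subunits *Smc1a* (105 and 59.3 FPKM, -0.82) and *Smc3* (75.3 and 46.0, -0.71), the cohesin loader *Nipbl* (23.7 and 14.4, -0.71) and *Smchd1* (35.2 and 21.9, -0.68), a silencing factor of the clusters. *Ctcf* had 47.2 and 34.2 FPKM (-0.47). At E14.5, 10 of 12 were above 0, beside 50.7% of all genes, and none was past 1.5-fold. *Rad21*, the most abundant, had 86.2 and 99.6 FPKM (0.21), and the list median was 0.20. The median of the chromatin factors thus had the sign opposite to the α and β sums at each stage. It had the same sign as the γ sum, the largest of the 3 (-0.08 at E11.5 and 0.05 at E14.5). The α sum at E11.5 was 0.02 under the rescaling. Whether these values are linked was not tested. Cohesin also holds sister chromatids together in dividing cells.

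Clustered protocadherins signal to the WAVE complex and to the kinases *Ptk2* and *Ptk2b*. Of 11 effector genes at E11.5, 1 was past 1.5-fold higher and 1 lower, beside 18.9% and 12.9% of all genes. Their median ratio was -0.09. *Abi2*, a WAVE subunit, had 24.9 FPKM in control ganglia and 11.3 in the CKO (-1.13), while *Abi1* had 20.7 and 25.5 (0.30), and *Nckap1*, the most abundant, had 96.5 and 83.6 (-0.21). At E14.5 none was past 1.5-fold, with a median of 0.01, and *Nckap1* had 70.8 and 75.7 FPKM (0.10). The list thus held no shared direction at either stage.

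**Figure D5:**
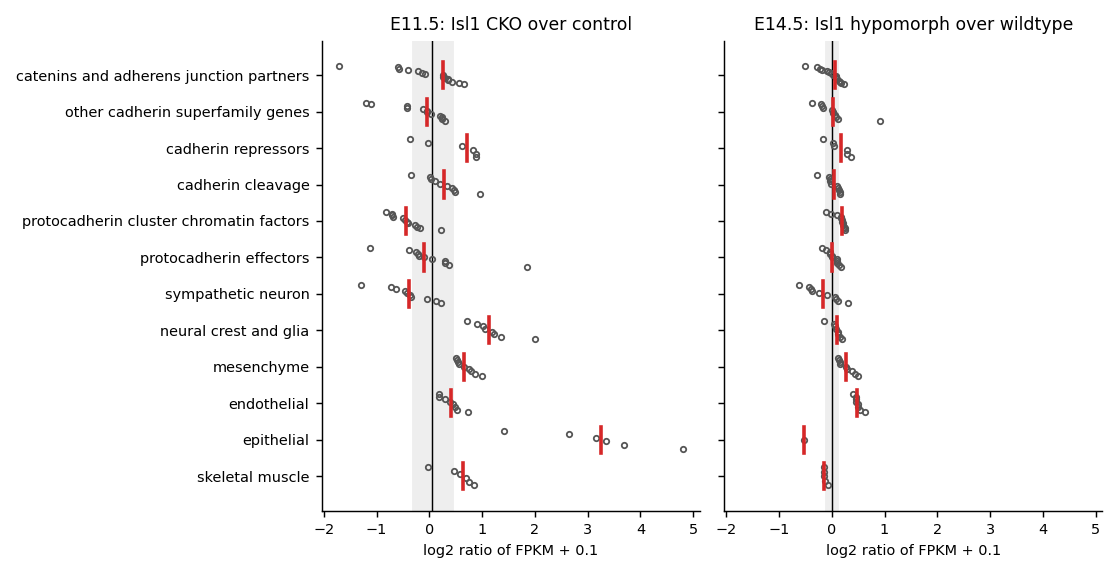
Log2 ratio of FPKM + 0.1, mutant over control, for the genes of 6 pathway lists and 6 cell type marker lists at E11.5 (left) and E14.5 (right). Open points are genes, red bars are list medians, and the grey band spans the quartiles of all genes around their median (black line). At E11.5 the medians of the epithelial (3.25), neural crest and glial (1.13), cadherin repressor (0.72), mesenchyme (0.66) and skeletal muscle (0.64) lists lie to the right of the band. Those of the cluster chromatin factors (-0.45) and sympathetic neuron markers (-0.39) lie to its left. The band is narrower at E14.5, with the endothelial (0.48), mesenchyme (0.27), chromatin factor (0.20) and repressor (0.17) medians to its right. To its left lie the epithelial (-0.52, *Krt19* alone), sympathetic neuron (-0.17) and skeletal muscle (-0.14) medians. Rescaling FPKM moves the E11.5 points left by about 0.24.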

How the data were processed

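Sympathetic ganglia of 4 groups were measured with 2 libraries each, from poly(A) RNA amplified with a SMARTer kit. The authors deposited cuffdiff FPKM, 1 value per gene for both libraries of a genotype, and listed genes that reach 1 FPKM in 1 genotype or the other. The deposited tables also hold the authors' log2 fold changes and p-values, which were not used. The study's methods give the mouse build mm9, TopHat and cuffdiff, whereas the submitters' processing notes list dm3, a fly build, with Bowtie, TopHat 1.3.1 and Cuffdiff 1.3.0. The symbols are those of mouse genes. Depth per library is unknown.

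Log2 ratios were computed with a pseudocount of 0.1 and counted past 1.5-fold. Each non-clustered member was named, as were the 2 isoforms of a cluster with the highest mean, isoforms at or above 5 FPKM in a group, pathway genes at or above 10 FPKM and past 1.5-fold, the most abundant gene of a pathway list and the 2 of a marker list, and other names are marked. The result of 1 marker list is not reported here. Members, lists and rules were chosen with earlier results of these data known. The alternatives were a pseudocount of 1 or 0.01, other FPKM minimums, centring, rescaling without erythroid and small RNA genes, fold thresholds of 2 and 1.2, leaving out the clusters, and other isoform sets. The steps were tested on simulated data. Python 3.11.15, numpy 2.4.6, pandas 2.3.3 and matplotlib 3.10.9 were used.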

Additional observations from a re-analysis of the deposited data

Results flagged for a closer look

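Among the cluster sums and single members, 3 had opposite signs at the 2 stages with a log2 ratio of at least 0.1 in size for a sum, or past 1.5-fold for a member. The β cluster sum had a ratio of 0.73 in CKO ganglia at E11.5 (0.49 under the rescaling) and -0.21 in hypomorphic ganglia at E14.5. The α cluster sum had 0.26 at E11.5 (0.02 under the rescaling), where *Pcdhac2* took 61.7% of the control sum, and -0.32 at E14.5. *Cdh8* was past 1.5-fold higher at E11.5 (0.69) and past 1.5-fold lower at E14.5 (-0.67), at between 0.812 and 2.39 FPKM. Its hypomorph value was below the listing limit, so the listing fixed its E14.5 sign. The E11.5 ratio of *Cdh8* was 0.46 under the rescaling, and with a pseudocount of 1 both were below 1.5-fold (0.47 and -0.37). The difference between stages was not tested for any of them, since each genotype has 1 combined value, and the comparisons differ in allele and in the marker lists that differed beside them.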

How the results depend on the processing

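No paired analysis was possible because each genotype has 1 combined value per gene, and leaving out a library could not be run for the same reason. With no spread between libraries, no value has a measured error, and a ratio or sum counted as moved when it changed by more than 1.2-fold and a count when it changed by more than 1.5 times. The number of members higher and lower at E11.5 was 23 and 4. It was 13 and 0 with a pseudocount of 1, 6 and 0 at 5 FPKM or more in either genotype, 13 and 2 at 1 FPKM or more in both, 11 and 8 after rescaling without erythroid and small RNA genes, 6 and 0 at 2-fold, 39 and 9 at 1.2-fold and 13 and 1 without the clustered protocadherins. The E11.5 median of 0.40 was 0.059 at 5 FPKM or more and 0.69 without the clusters. At E14.5 the 1 higher and 4 lower members became 0 higher with a pseudocount of 1, 0 lower at 5 FPKM or more, 1 lower at 1 FPKM or more in both, 0 higher and 2 lower at 2-fold, 7 and 19 at 1.2-fold, 0 and 2 without the clusters, and 2 lower at a mean FPKM of 1 or more, a setting chosen after the data were seen. The α sum at E11.5 went from 0.26 to 0.56 without its most abundant isoform. The pseudocount and the FPKM minimums act on genes near 1 FPKM. Rescaling multiplies each genotype by 1 factor. No cluster sum or single non-clustered gene past 1.5-fold changed sign under any setting run. Below 1.5-fold, the E14.5 median of -0.13 turned to 0.005 at 5 FPKM or more and to 0.048 without the clustered protocadherins, and *Cdh2* at E11.5 and *Cdh6* at E14.5 turned under the rescaling. Rescaling and centring on its own median, also chosen after the data were seen, gave 22 higher and 6 lower at E11.5.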
